A study of Mus musculus with 6 samples.

Results

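The genes described here are 10 mouse genes of the tripartite motif (TRIM) family that are linked to interferon: Trim30a, Trim30b, Trim30d, Trim12a, Trim12c, Trim34a, Trim14, Trim21, Trim25 and Trim26. They were taken by name from tables of 54532 genes, and each name stands on 1 row. The 6 libraries sequenced are all from RAW264.7, a cultured line of mouse cells that resemble macrophages. In 3 libraries the label gives the genotype as an ERMAP knockdown and the treatment as shRNA, a short hairpin RNA, and these are called ERMAP shRNA libraries. The other 3 are labelled WT with no treatment and are called control libraries. The protocol text names an ERMAP shRNA lentivirus for all 6 samples, and no label describes a non-targeting hairpin, so whether control cells carried a virus is not given. The question, from the design text, is which genes differ after ERMAP is knocked down.

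TRIM proteins are built from a RING finger, 1 or more B-box zinc fingers and a coiled coil, usually followed by a further domain that binds the target. The RING finger makes most of them E3 ubiquitin ligases, which attach ubiquitin to chosen proteins. In macrophages several are induced by interferon and act on the pathways that sense viral nucleic acid, either driving or restraining them. A group of TRIM genes related to human TRIM5 has multiplied in the mouse and lies side by side on chromosome 7.

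Interferon-induced genes commonly carry a repeat of GAAA near their start, to which interferon-activated transcription factors bind. RefSeq windows (GRCm38.p6) of 250 bases before and 50 bases after the gene start were found for 9 of the 10 genes, and were searched on both strands for GAAA followed by 2 bases of any kind and a second GAAA, and for the shorter form with 1 base between (GAAANGAAA); matches may overlap each other. The form with 2 bases between was found in the first window of 7 of the 9 genes, against 3.44% of all 32851 windows in the table. Within 50 bases of the start it was found in 6 of them (Trim12a, Trim12c, Trim21, Trim30a, Trim30d and Trim34a), against 0.98% of all windows. The shorter form was in 3.17% of all windows. The windows of Trim25 and Trim30b held neither. A match is a string of letters and not a shown binding site. The sequences below read along the gene's own strand, where most matches appear as the reverse complement. Capitals mark the matches that lie whole within the printed stretch. Some matches of the shorter form lie partly or wholly outside it and are not marked. They run from 1 to 9 bases after the start in Trim30a and from 38 to 46 after it in Trim12a. Those of Trim30d and Trim12c cross the start, from 5 bases before to 4 after and from 2 before to 7 after.
Trim30a: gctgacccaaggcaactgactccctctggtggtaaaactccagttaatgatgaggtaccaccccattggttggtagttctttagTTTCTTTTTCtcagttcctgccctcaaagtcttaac
Trim30d: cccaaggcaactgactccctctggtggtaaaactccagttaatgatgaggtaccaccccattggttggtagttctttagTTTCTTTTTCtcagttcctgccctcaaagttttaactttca
Trim12c: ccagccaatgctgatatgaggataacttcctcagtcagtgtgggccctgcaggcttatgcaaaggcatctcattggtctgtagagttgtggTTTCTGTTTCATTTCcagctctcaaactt
Trim26: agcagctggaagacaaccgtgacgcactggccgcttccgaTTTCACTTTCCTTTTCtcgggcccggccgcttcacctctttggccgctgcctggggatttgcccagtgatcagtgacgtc
Trim12a: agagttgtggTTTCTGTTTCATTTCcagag
Trim34a: tggtttggagTTTCAGTTTCTTTTCtctgc
Trim21: ctgcctctgagagGAAACTGAAAGTGAAAt

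The stretches of Trim30a (chr7:104465194-104465313, minus strand), Trim30d (chr7:104507850-104507969, minus strand) and Trim12c (chr7:104353350-104353469, minus strand) are the 120 bases before the start. That of Trim26 (chr17:36836946-36837065, plus strand) runs from 200 to 81 bases before its start, since its overlapping matches lie 160 to 145 bases before it. The stretches of Trim12a (chr7:104315466-104315495, minus strand), Trim34a (chr7:104244457-104244486, plus strand) and Trim21 (chr7:102565453-102565482, minus strand) are the first 30 bases from the annotated start. Trim30a and Trim30d shared an unbroken run of 118 bases that holds the repeat, which lies 36 to 27 bases before the start of Trim30a and 41 to 32 before that of Trim30d. Trim12c and Trim12a shared a run of 71 bases farther upstream. The matches within each of these pairs are therefore not independent.

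**Figure D1:**
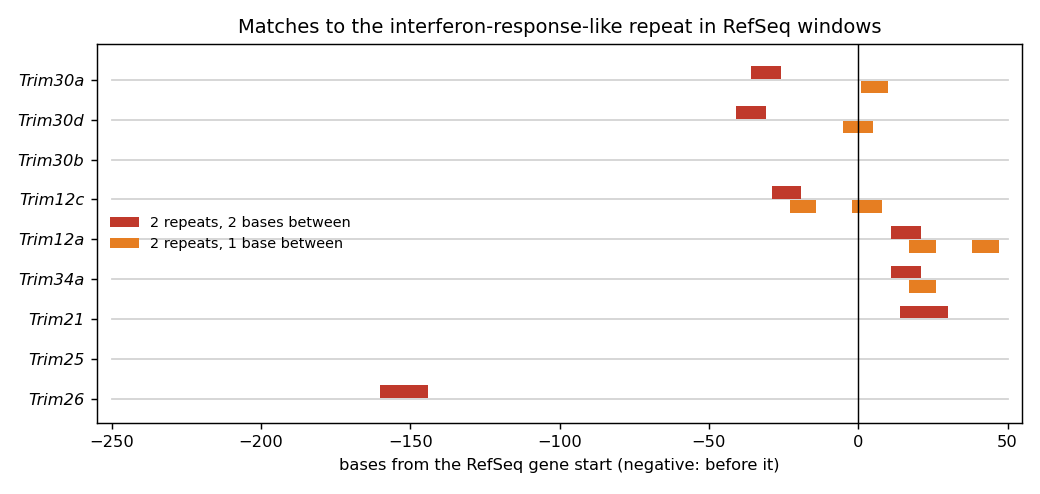
Positions of the repeat in the first RefSeq window of 9 TRIM genes. The horizontal axis is the distance in bases from the annotated start, red bars are matches with 2 bases between the repeats and orange bars those with 1 base. Matches of 6 genes lie within 50 bases of the start, those of Trim26 lie 160 to 145 bases before it, and the lines of Trim25 and Trim30b hold none.

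Of the 10 genes, 6 lie in 1 stretch of chromosome 7 (mm10, 104244457 to 104507849, 263.4 kb). All 9 protein-coding genes of that stretch are TRIM genes: Trim34a, Trim5, Trim12a, Trim34b, Trim12c, Trim30b, Trim30c, Trim30a and Trim30d. Trim21 lies apart on the same chromosome (102557921 to 102565486), Trim14 on chromosome 4 (46493781 to 46536141), Trim25 on chromosome 11 (88999376 to 89020293) and Trim26 on chromosome 17 (36837134 to 36859398). How the authors counted reads that fit more than 1 gene is not given here. The share of a gene's 50-base words in its GENCODE vM21 transcripts that also occur in another gene was 59.7% for Trim34a, and 39.8% of all its words are in Trim34b. It was 33.9% for Trim14, with 29.5% of all its words in Nans, a gene on the opposite strand that overlaps it, and 33.7% for Trim12c, with 24.2% of all its words in Trim5. It was 10.5% for Trim12a, 7.49% for Trim30d, 5.98% for Trim30a, and at most 1.48% for Trim30b, Trim26, Trim25 and Trim21. Counts of Trim34a, Trim14 and Trim12c are therefore uncertain as counts of single genes. The library kit's strand setting in counting is not given, so reads of Trim14 and Nans, or of Trim34a and the antisense gene Gm47248 that overlaps it, cannot be told apart; Gm47248 had 0 counts in all 6 libraries.

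Summed counts ranged from 13447021 to 15116705 in ERMAP shRNA libraries and from 14478988 to 16602734 in control libraries. Ermap itself had 10, 21 and 14 counts in ERMAP shRNA libraries and 12, 12 and 3 in control libraries (log2 fold change 0.81, edgeR adjusted p = 0.929), so Ermap mRNA was not lower under the knockdown label, and directions below go by that label. All 8 macrophage markers were tested and summed to between 6801 and 6921 CPM (counts relative to library size, scaled by edgeR's TMM factors) in ERMAP shRNA libraries and between 6790 and 7084 CPM in control libraries. Of these 8, 1 rose, Fcgr1, which encodes the high-affinity receptor for IgG (log2 fold change 1.64, edgeR adjusted p = 0.000116), and 0 fell. Over all tested genes, 1.01% rose and 0.136% fell. Markers of T cells, neutrophils, fibroblasts and epithelium summed to at most 0.266 CPM per list in any library, and Cd3e, Ly6g and Epcam were at 0. Control replicate 1 stood apart: mitochondrial transcripts were 3.69% of its counts, against 1.71% to 2.18% in the other 5 libraries, and the higher a transcript's GC content, the lower it read there than in the other controls (Spearman rho -0.77 across 10765 genes, which are not independent replicates). The same measure was -0.47 to 0.34 in ERMAP shRNA libraries, and 0.70 and 0.62 in control replicates 2 and 3, which are set against a mean that holds control replicate 1. Results are therefore given with and without it. Separate cultures are not stated for the replicates, and p-values may therefore reflect technical spread alone. Genes were tested with edgeR's quasi-likelihood method over all 12491 genes that passed the filter on low counts, and a gene is said to have risen or fallen at an adjusted p under 0.05.

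The TRIM30 genes were led by Trim30a, which showed the largest fold change of the 7 genes tested. Trim30a encodes a ligase that, in the mouse, has been reported to restrain Toll-like receptor signalling by removing the adaptors TAB2 and TAB3. Its level was 47.3, 54.8 and 52.8 CPM in ERMAP shRNA libraries, against 2.21, 2.17 and 2.31 CPM in control libraries. Every ERMAP shRNA library was far above every control library, and the libraries of each group lay close together. Trim30a rose 23.1-fold (95% interval 18.5 to 28.8, log2 fold change 4.53, SE 0.14, edgeR adjusted p = 4.99e-06, n = 3 per group). Without control replicate 1 its log2 fold change was 4.52 (edgeR adjusted p = 1.08e-16). It kept its call under each alternative run, with an edgeR, DESeq2 or limma adjusted p of at most 0.000323. In bulk RNA, more cells making a transcript and more RNA per cell cannot be told apart.

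Its neighbours in the TRIM30 group were barely counted. Trim30d, a close relative whose promoter shares the 118-base run with Trim30a, had 4, 5 and 1 counts in ERMAP shRNA libraries, against 0, 2 and 0 counts in control libraries. Scaled for library size, that is a ratio of 5.32 with an exact binomial interval of 1.13 to 49.9, which covers counting error only. Trim30b had 0 counts in all 6 libraries, which allows up to 0.0335 CPM at 3 counts over the 6 libraries. Trim30c is not among the 10 and lies between Trim30b and Trim30a. It had 2, 8 and 1 counts in ERMAP shRNA libraries and 0 in every control library, so most came from ERMAP shRNA replicate 2. Scaled for library size, its sum of 11 is 3.90-fold a floor of 3 counts in all set for the control group. None of these passed the filter on low counts, so none was tested.

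Trim12c and Trim12a are mouse relatives of human TRIM5, the factor that binds retroviral capsids. Trim12c stood at 20.6, 23.4 and 20.7 CPM in ERMAP shRNA libraries, against 16.6, 11.3 and 9.51 CPM in control libraries. The groups did not overlap, and control replicate 1 was the highest control. This gave a log2 fold change of 0.79 (95% interval 0.31 to 1.28, SE 0.21), which did not pass the test (edgeR adjusted p = 0.234). Without control replicate 1 it was 1.05 and passed (edgeR adjusted p = 6.15e-06). DESeq2 also called it (0.80, adjusted p = 0.0305). Trim12c transcripts have a GC content of 41.0%, and with GC offsets, added after seeing the data, the log2 fold change was 0.89 and passed (edgeR adjusted p = 0.000958). Trim30a, at 40.8% GC, lay in control replicate 1 between the other controls. Control replicate 1 was the lowest control for Trim34a (44.3%), Trim21 (46.2%), Trim25 (49.95%), Trim26 (51.0%) and Trim14 (51.7%). Whether GC content sets the values of single members there was not tested. Trim12a had 1 count in ERMAP shRNA libraries and 0 in control libraries, and Trim5 had 0 counts in all 6, so reads were listed almost wholly under Trim12c within this trio.

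Trim34a, the mouse counterpart of human TRIM34, was close to the limit of detection. Its counts were 22, 18 and 16 in ERMAP shRNA libraries, against 0, 7 and 7 in control libraries. The groups did not overlap, and control replicate 1 was the library at 0. The log2 fold change was 2.08 with a wide interval (0.56 to 3.59, edgeR adjusted p = 0.391), and 1.53 without control replicate 1 (edgeR adjusted p = 0.0894). Trim34a passed the filter only through ERMAP shRNA libraries, so its difference is given as a value. Its near-copy Trim34b had 15, 29 and 31 counts in ERMAP shRNA libraries, against 24, 11 and 7 in control libraries. Control replicate 1 was thus its highest control, in the library where Trim34a had 0. Trim34b had a log2 fold change of 0.89 (edgeR adjusted p = 0.894). Without control replicate 1 it was 1.58 and passed (edgeR adjusted p = 0.0482), where 2.67% of tested genes were called higher. How reads were split between the copies was not tested. With the counts of both copies summed, a choice made after seeing the data, levels were 2.77, 3.13 and 3.13 CPM in ERMAP shRNA libraries, against 1.66, 1.08 and 0.924 CPM in control libraries. The summed value was 1.30 (SE 0.29, edgeR adjusted p = 0.118).

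**Figure D2:**
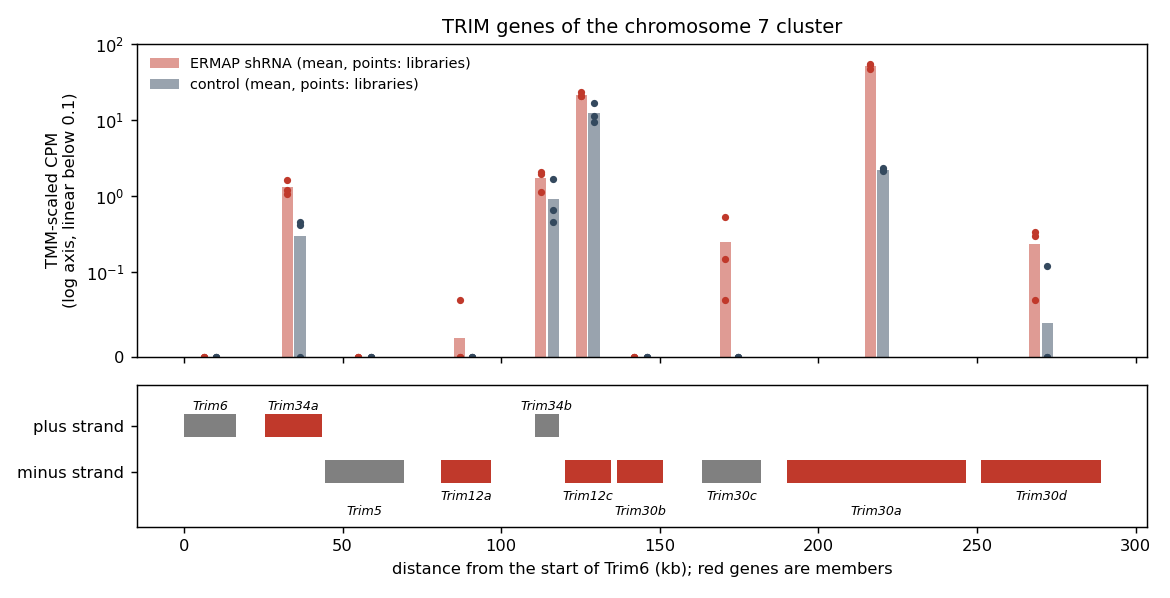
TRIM genes along the chromosome 7 cluster, by distance in kb from the start of Trim6. The upper panel gives mean TMM-scaled CPM per group as bars, ERMAP shRNA left of control, with points for the 3 libraries of each group on an axis that is logarithmic above 0.1 and linear below it, and the lower panel shows the genes by strand. Trim30a, at 47.3 to 54.8 CPM in ERMAP shRNA libraries and 2.17 to 2.31 CPM in control libraries, stands between Trim30c and Trim30d, which had at most 11 counts per group.

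Trim25 was the most abundant of the 10 and the only other one that rose. It encodes a ligase known for adding ubiquitin to RIG-I, the cytosolic sensor of viral RNA, and for working with the RNA-binding protein ZAP. Trim25 was at 356.3, 368.9 and 369.2 CPM in ERMAP shRNA libraries, against 247.8, 256.0 and 262.2 CPM in control libraries. Libraries of each group lay within a narrow band, and the bands were far apart. The rise was 1.43-fold (95% interval 1.25 to 1.63, log2 fold change 0.51, SE 0.08, edgeR adjusted p = 0.0255, n = 3 per group). Without control replicate 1 it was 0.49 (edgeR adjusted p = 8.49e-06). Leaving out any other single library ended the call, with edgeR adjusted p from 0.0923 to 0.232 and log2 fold changes from 0.50 to 0.54.

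Trim14 and Trim26 act further along the same pathway. Trim14 lacks a RING finger and is known as an adaptor at MAVS, the signalling protein below RIG-I, and as a stabiliser of the DNA sensor cGAS. It stood at 45.0, 44.6 and 47.6 CPM in ERMAP shRNA libraries, against 20.3, 35.5 and 36.4 CPM in control libraries. Control replicate 1 was far below the other controls. The log2 fold change was 0.57 (SE 0.21, edgeR adjusted p = 0.554), and 0.34 without control replicate 1, where it passed (edgeR adjusted p = 0.0218). Nans, which shares 50-base words with Trim14, was also lowest in control replicate 1, at 134.2, 125.9 and 139.9 CPM in ERMAP shRNA libraries, against 90.6, 127.4 and 131.3 CPM in control libraries (log2 fold change 0.20, edgeR adjusted p = 0.937). Trim14 transcripts have a GC content of 51.7%, and with GC offsets the log2 fold change was 0.53 (edgeR adjusted p = 0.138). The part of Nans reads in its value was not tested.

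Trim26 encodes a ligase reported to act on IRF3 and on signalling through TBK1. Its level was 61.1, 55.4 and 63.9 CPM in ERMAP shRNA libraries, against 41.0, 47.3 and 47.1 CPM in control libraries. The groups did not overlap, and control replicate 1 was the lowest library. Trim26 had a log2 fold change of 0.41 (95% interval 0.16 to 0.66, SE 0.11, edgeR adjusted p = 0.232), and 0.34 without control replicate 1, where it passed (edgeR adjusted p = 0.0146).

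Trim21 encodes a cytosolic receptor for antibody that marks antibody-coated virus for destruction. It was at 9.49, 9.18 and 12.4 CPM in ERMAP shRNA libraries, against 3.11, 6.08 and 3.90 CPM in control libraries. The groups did not overlap, with control replicate 2 the highest control. Its log2 fold change of 1.24 (95% interval 0.62 to 1.85, SE 0.27) did not pass (edgeR adjusted p = 0.106). It passed without control replicate 1 (1.04, edgeR adjusted p = 0.00167), without control replicate 2 (1.56, edgeR adjusted p = 0.0376) and in DESeq2 (1.25, adjusted p = 0.00239). Trim21 also passed with no filter on low counts (1.24, edgeR adjusted p = 0.01256) and with GC offsets (1.227, edgeR adjusted p = 0.03025). Under the other alternatives it did not pass.

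**Figure D3:**
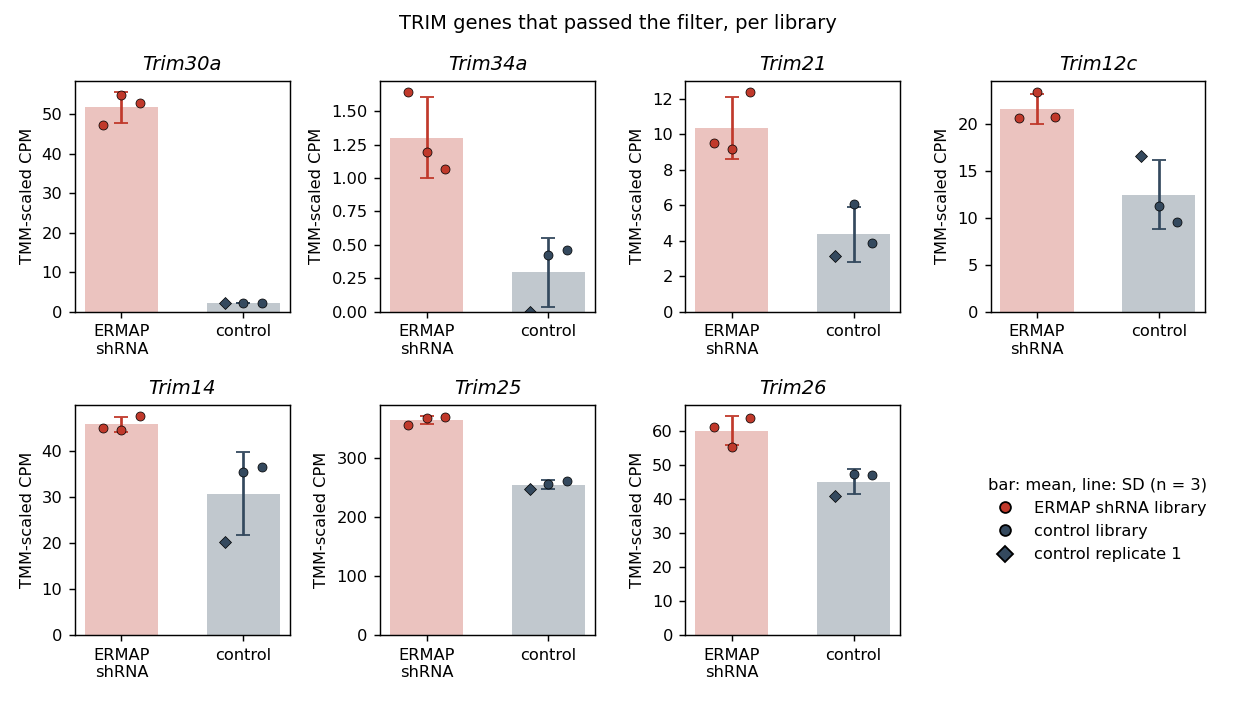
TMM-scaled CPM of the 7 TRIM genes that passed the filter on low counts, in ERMAP shRNA libraries (red, left) and control libraries (dark, right). Points are libraries, bars are means and lines are SD (n = 3), and a diamond marks control replicate 1. No panel shows overlap between the groups, with ERMAP shRNA libraries above every control library, as in 7.74% of all tested genes. Trim34a passed the filter only through ERMAP shRNA libraries. The diamond is the lowest control for Trim34a, Trim21, Trim14, Trim25 and Trim26 and the highest for Trim12c.

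Across the 10 genes, 7 were tested, 2 rose (Trim30a and Trim25), 0 fell and 5 did not pass the test. Over all tested genes, 1.01% were called higher and 0.136% lower. Of the 7, 6 had at least 10 counts in every library, which leaves out Trim34a. All 6 had ERMAP shRNA libraries above every control library in CPM, as did 7.74% of all tested genes, and their median log2 fold change was 0.68, against -0.01 over all tested genes. At an unadjusted p under 0.05 all 6 were higher, as were 3.71% of all tested genes. Without control replicate 1 the test called 6 of the members higher, all but Trim34a, where 2.67% of tested genes were called higher. DESeq2 called 4 higher (Trim12c, Trim21, Trim25 and Trim30a), where 1.19% of its tested genes were called higher. The 10 genes were chosen with earlier results of these data known, so these counts and shares describe the list and do not test it.

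**Figure D4:**
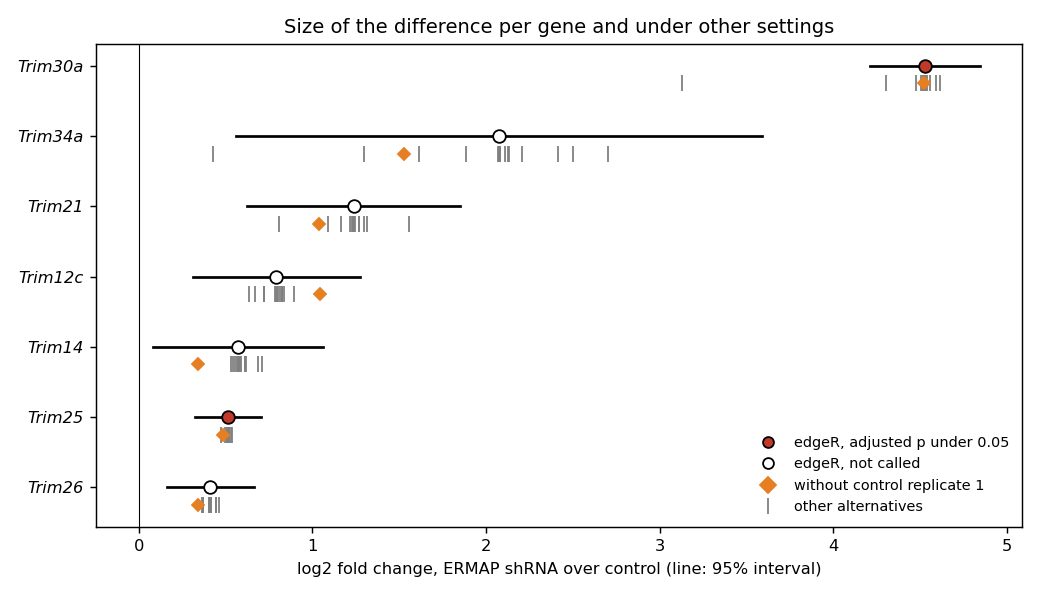
Log2 fold changes of the 7 tested TRIM genes, ERMAP shRNA over control. Circles with lines are edgeR values with 95% intervals, red where called, orange diamonds are values without control replicate 1, and grey ticks are the other alternatives, among them 2 on a log2(FPKM + pseudocount) scale. For Trim34a, 1 tick (1.30) is the value with its counts and those of Trim34b summed. Trim30a lies at 4.53, all other circles lie between 0.41 and 2.08, and no value falls below 0. Trim34a passed the filter only through ERMAP shRNA libraries.

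Levels of different genes were compared by the deposited FPKM, which divides by gene length. In ERMAP shRNA libraries the order of mean levels was Trim25 (63.0 ± 1.44 FPKM), Trim30a (12.5 ± 0.977 FPKM), Trim14 (10.5 ± 0.384 FPKM), Trim26 (8.70 ± 0.624 FPKM), Trim12c (5.73 ± 0.424 FPKM), Trim21 (2.77 ± 0.475 FPKM) and Trim34a (0.499 ± 0.115 FPKM), each SD over 3 libraries. No neighbouring pair among these 7 overlapped. In control libraries Trim30a stood sixth, at 0.538 ± 0.0186 FPKM, below Trim21 at 1.17 ± 0.413 FPKM and above Trim34a at 0.113 ± 0.098 FPKM. The control order was otherwise the same, and the ranges of Trim14 (7.02 ± 2.09 FPKM) and Trim26 (6.51 ± 0.538 FPKM) overlapped there. Trim30d, Trim12a and Trim30b were at or below 0.0882 FPKM in every library.

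In FPKM units the largest difference belonged to Trim25 and not to Trim30a. Mean Trim25 was 19.1 FPKM higher in ERMAP shRNA libraries and mean Trim30a 12.0 FPKM higher, while the other 8 genes differed by at most 3.46 FPKM each. Summed over the 10 genes, FPKM was 103.8 ± 2.88 in ERMAP shRNA libraries and 62.6 ± 3.36 in control libraries (SD, n = 3). Trim25 made up 60.2% to 61.0% of that sum in ERMAP shRNA libraries, against 68.5% to 72.4% in control libraries. Trim30a made up 11.3% to 12.7% in ERMAP shRNA libraries, against 0.812% to 0.904% in control libraries.

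In the rest of the TRIM family 1 gene rose. Of 62 other genes of the family, 18 had no count in any library and 29 were tested. That gene was Pml, also called TRIM19, which builds the nuclear bodies named after it, and 0 fell (edgeR, where 1.01% of all tested genes were called higher and 0.136% lower). DESeq2 also called Pml higher and 0 of the family lower, where 1.19% of its tested genes were higher and 0.369% lower. With no adjustment of p, 3 were higher and 1 lower at p under 0.05, where 3.71% and 3.04% of all tested genes were. Pml averaged 117.3 CPM in ERMAP shRNA libraries and 67.1 CPM in control libraries (log2 fold change 0.81, 95% interval 0.51 to 1.11, edgeR adjusted p = 0.0302), and was called without control replicate 1 (0.67, edgeR adjusted p = 4.59e-07). Without any of the other 5 libraries it was not called (edgeR adjusted p from 0.0604 to 0.200). The median log2 fold change of the 29 was -0.02. Their ERMAP shRNA libraries stood above every control library in 4 and below in 3, against 7.74% and 6.47% of all tested genes.

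The most abundant others were Trim28, a co-repressor of retroelements, Trim8 and Trim35. Trim28 averaged 122.2 FPKM in ERMAP shRNA libraries and 111.6 FPKM in control libraries (log2 fold change 0.13, 95% interval -0.12 to 0.37). Trim8 had 0.13 (95% interval -0.29 to 0.54) and Trim35 -0.05 (95% interval -0.24 to 0.15). Trim68, which lies on chromosome 7 near Trim21, averaged 10.5 CPM in ERMAP shRNA libraries and 10.9 CPM in control libraries (log2 fold change -0.06, edgeR adjusted p = 0.96). Trim6, beside Trim34a, had 0 counts in all 6 libraries. Trim47, picked after its value was seen, had the most negative value, -0.96 (edgeR adjusted p = 0.329), and was called lower without control replicate 1 (-1.22, edgeR adjusted p = 1.13e-05), where 2.19% of tested genes were.

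**Figure D5:**
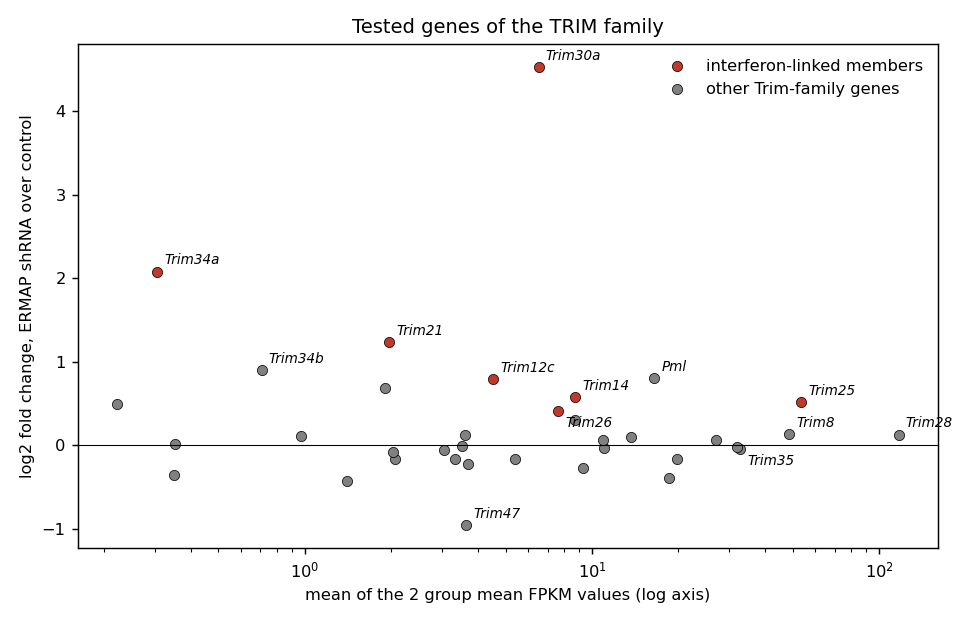
Tested genes of the TRIM family, by the mean of the group mean FPKM values (log axis) and log2 fold change, ERMAP shRNA over control. Red points are the 7 tested interferon-linked genes and grey points the 29 other family genes. Red points all lie above 0, from 0.41 (Trim26) to 4.53 (Trim30a), and grey points lie from -0.96 (Trim47) to 0.89 (Trim34b). Among the red points, Trim34a passed the filter only through ERMAP shRNA libraries.

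A list of 20 other genes of the pathways in which these TRIM proteins act was also tested, and these are called partner genes. Of the 20, 4 rose (Ddx58, Ifih1, Irf7 and Isg15), 0 fell and 16 did not pass the test. Among all tested genes, 1.01% were called higher and 0.136% lower. The median log2 fold change of the 20 was 0.02. Ddx58, which encodes RIG-I, averaged 109.5 CPM in ERMAP shRNA libraries and 13.0 CPM in control libraries (log2 fold change 3.07, edgeR adjusted p = 7.42e-06). Ifih1, which encodes the RNA sensor MDA5, averaged 30.1 CPM in ERMAP shRNA libraries and 5.80 CPM in control libraries (2.38, edgeR adjusted p = 0.00503). Irf7, the transcription factor that amplifies interferon production, averaged 128.1 CPM in ERMAP shRNA libraries and 4.72 CPM in control libraries (4.75, edgeR adjusted p = 0.000195). Isg15, a ubiquitin-like modifier, averaged 14.2 CPM in ERMAP shRNA libraries and 0.629 CPM in control libraries (4.45, edgeR adjusted p = 0.00218).

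The following partner genes were picked after their values were seen, for their known ties to the members. Zc3hav1, which encodes ZAP, had a log2 fold change of 0.41 (edgeR adjusted p = 0.279) and Mb21d1, which encodes cGAS, 0.43 (edgeR adjusted p = 0.0738). Without control replicate 1 both passed, at 0.52 for Zc3hav1 (edgeR adjusted p = 1.08e-05) and 0.43 for Mb21d1 (edgeR adjusted p = 0.000605). Mavs had 0.14 (95% interval -0.09 to 0.37), Tbk1 -0.06 (95% interval -0.33 to 0.21) and Irf3 -0.04 (95% interval -0.44 to 0.37). Tab2 and Tab3, the reported targets of Trim30a in the mouse, had -0.05 (95% interval -0.43 to 0.33) and -0.24 (95% interval -0.77 to 0.29).

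Profiles across the 6 libraries were compared by the root-mean-square difference of log2 CPM centred on each gene's mean, over 9353 protein-coding genes outside the TRIM family with a mean of at least 5 CPM. The genes most like Trim30a were Lgals9 (difference 0.26), Usp18 (0.26), Rtp4 (0.30), Cmpk2 (0.43) and Irf7 (0.51). Lgals9, which encodes galectin-9, averaged 56.4 CPM in ERMAP shRNA libraries and 1.91 CPM in control libraries, and Usp18, which encodes the protease that removes ISG15, averaged 74.5 CPM in ERMAP shRNA libraries and 3.63 CPM in control libraries. The genes most like the median profile of the 7 tested members were H2-T22 (0.065), Nid2 (0.083), Agrn (0.094), Tapbp (0.098) and Sema4c (0.103). Of these, Agrn was called (log2 fold change 0.97, edgeR adjusted p = 0.0402), and leaving out any library but control replicate 1 ended that call (edgeR adjusted p from 0.0747 to 0.232). The nearest genes were picked by their values in these same 6 libraries, so the call of Agrn is not separate support. The median profile includes Trim34a, which passed the filter only through ERMAP shRNA libraries.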

How the data were processed

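Per the labels' protocols, libraries came from total RNA with NEBNext Ultra RNA reagents. The authors deposited raw read counts, 1 row per gene, and FPKM per library and per group. Per the submitters' processing notes, HISAT2 was the aligner and mm10 the build. Not given in the sources used here are versions, the counting program, its strand setting and the annotation. The deposited FPKM equal the count divided by gene length and 1 constant per library. Replicate numbers are those of the column names, which could not be tied to single sample titles.

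Counts of all 54532 genes were tested in edgeR 4.0.16 (R 4.3.3) with TMM factors, filterByExpr (minimum count 10), robust quasi-likelihood and Benjamini-Hochberg adjustment over 12491 genes. Alternatives used limma 3.58.1 and DESeq2 1.42.0, other scalings, filters and pseudocounts, a replicate block, each library left out, GC offsets, and Trim34a summed with Trim34b; the last 2, and all alternatives for partner genes, were added after seeing the data. The test was also run on simulated data, where false calls exceeded the share set by the threshold and most 1.5-fold changes were missed. Replicates differed by more than sampling noise in every pair: the chi-square per degree of freedom over genes with at least 20 counts was 3.35 to 67.2. Intervals, ratios and floors from counts cover counting error only.

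The 10 genes and the lists were chosen with earlier results of these data known. Named genes are the 10, called genes of the other TRIM and partner lists, the 3 most abundant other TRIM genes, TRIM genes between members on chromosome 7, and the 5 nearest profiles. Other genes named, among them partner genes that did not pass, were picked after their values were seen. Protein sequence features were planned and not analysed here. Some marker lists are not reported here. Sequences are from RefSeq (GRCm38.p6), and shared 50-base words were counted in GENCODE vM21 transcripts, on both strands.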

Additional observations from a re-analysis of the deposited data

How the results depend on the processing

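Against 2 members called higher, DESeq2 gave 4, GC offsets 5 (Trim12c, Trim21, Trim25, Trim26 and Trim30a, with 249 of 12476 tested genes called higher), no filter on low counts 3 (0.698% of all tested genes), an adjusted p under 0.01 1 (0.656%) and the replicate block 1 (0.648%); leaving out 1 library gave 1 to 6, with 6 without control replicate 1 (0.571% to 2.67%). No member was called lower under any of these. Against 1 other TRIM-family gene called higher (Pml), limma-trend on log2(FPKM + 0.1), the adjusted p under 0.01 and the replicate block gave 0. Leaving out 1 library gave 0 to 2, with 2 without control replicate 1, where 2.67% of all tested genes were called higher. The 4 partner genes called higher kept their calls under every alternative, with 4 to 6 called and 0 lower. Against 0 other TRIM-family genes called lower, GC offsets gave 1 (Trim47), where 1.39% of all tested genes were called lower. Leaving out 1 library gave 0 to 1, with 1 without control replicate 1, where 2.19% were called lower. The cause was not tested, except that a stricter threshold calls fewer genes by construction. Whether the replicate numbers pair the libraries is not given. Same-numbered libraries had correlations of deviations of -0.13, -0.28 and 0.18, and of the ERMAP shRNA libraries only replicate 3 correlated best with its own number. With 3 libraries per group, these correlations cannot exclude a pairing. With the block, Trim25 had 0.51 (edgeR adjusted p = 0.206).

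All log2 fold changes of the 7 tested members stayed above 0, though Trim34a passed the filter only through ERMAP shRNA libraries. Trim30a ranged from 3.13 on log2(FPKM + 1) to 4.61 with GC offsets, and Trim34a from 0.43 on log2(FPKM + 1), where the pseudocount exceeds its FPKM, to 2.70 in limma-voom. The filter on mean CPM left out Trim34a. Depth limits Trim30b, Trim30d, Trim12a and Trim34a most.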

Other observations

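Trim69 and Trim43a, picked after their values were seen, are TRIM genes that were too low to test and had counts in ERMAP shRNA libraries alone: 7 and 5 counts there, against 0 and 0 in control libraries. Trim50, Trim55 and Trim75 had 0, 0 and 0 counts in ERMAP shRNA libraries, against 2, 2 and 1 in control libraries, all of them in control replicate 2. Trim62, also picked after its values were seen, had 14 counts in ERMAP shRNA libraries and 31 in control libraries.

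Trim30a has a second RefSeq start, whose window also holds the GAAA repeat with 2 bases between, 3 to 12 bases after that start. The gene-level counts do not separate the starts.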
